A study of Mus musculus with 9 samples.

Results

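RNA of Lipo-TriTE tumours was set against RNA of PBS tumours across the whole expressed genome, with weight on the pathways and gene classes that lie outside the immune system. The comparison took 6 of the 9 libraries of the study, the 3 labelled Lipo-TriTE and the 3 labelled PBS, and 16596 of the 44806 entries of the deposited count table passed the filter on low counts and were tested. The mice carried tumours of MB49, a mouse cell line that the labels call bladder cancer cells, and in every group the line overexpressed HER2, the receptor kinase that Erbb2 encodes in the mouse. One group received PBS, one Lipo-BiTE and one Lipo-TriTE. BiTE usually stands for a bispecific T cell engager, an antibody-derived molecule that links T cells to tumour cells; the labels do not name what either agent binds. PBS was the one control, so a carrier cannot be told apart from the agent it carries. The series text speaks of sorted T cells, whereas labels and extraction protocol describe whole frozen tumour, and the levels below are those of a mixture of cells. Whether each library is a mouse of its own is not stated in the labels, and p-values therefore reflect only how far these samples spread, which may be technical.

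A tumour of this kind holds cancer cells together with fibroblasts, vessels and leukocytes. Cancer cells and fibroblasts build the extracellular matrix, the mesh of collagens, laminins and proteoglycans around cells. In the Hippo pathway, kinases restrain the coactivators YAP and TAZ, which otherwise enter the nucleus with TEAD proteins and switch on genes of growth, adhesion and matrix. Dividing cells raise replication genes in S phase and mitotic genes afterwards, and growing cells make their own cholesterol and fatty acids under the SREBP factors. In RNA from a whole tumour, fewer cells of a type and less RNA per cell cannot be told apart.

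Libraries held 13152783 to 20273548 counts. The first principal component of log2 CPM held 54.3% of the variance and separated the groups, while PBS 1 lay apart from PBS 2 and 3 on the second. Levels are given as CPM, counts relative to the TMM-scaled total of the library, which are not corrected for gene length. Krt8 and Krt18, the keratins of simple epithelia, were present in all 6 libraries, at 463, 479 and 453 CPM for Krt8 in PBS and 159, 295 and 286 CPM in Lipo-TriTE. Markers of urothelium, the bladder lining, were near absent: 4 of 15 listed markers passed the filter, and Upk2, which encodes a uroplakin of the bladder surface, had 3 counts over the PBS libraries and 6 over the Lipo-TriTE libraries. The summed level of the T cell markers ran from 80.2 to 104 CPM in PBS and from 1746 to 3126 CPM in Lipo-TriTE, and 19 of 19 were called higher. B and plasma cell markers were higher in 18 of 18 cases, with sums of 212 to 244 CPM in PBS and 2606 to 5999 CPM in Lipo-TriTE. Neutrophil markers were higher in 13 of 13, with sums of 279 to 513 and 2156 to 6347 CPM. Macrophage and monocyte markers were higher in 12 of 14 and lower in 1, with sums of 255 to 302 and 860.5 to 1044 CPM. No marker of these 4 lists was at 0 in Lipo-TriTE. This change of the mixture moved with each result below, and its part in them was not tested.

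Lower genes changed less than higher genes. By the edgeR quasi-likelihood F test with a Benjamini-Hochberg adjusted p under 0.05, 2449 genes were lower in Lipo-TriTE (14.8% of those tested) and 3133 were higher (18.9%), together 33.6%. The median lower gene fell 1.78-fold, with quartiles of 1.52-fold and 2.13-fold, and 832 of the 2449 fell more than 2-fold and 32 more than 4-fold. The median higher gene rose 6.63-fold, and 2001 of the 3133 rose more than 4-fold. Lower genes had a median of 62.7 CPM in PBS and 36.1 CPM in Lipo-TriTE, against 3.17 and 21.6 CPM for higher genes; the PBS level is one side of the fold change, so these medians differ in part by construction. The 3 Lipo-TriTE libraries lay below all 3 PBS libraries in 23.4% of tested genes and above them in 26%. Among called genes, 97.5% of the lower and 99.2% of the higher had no overlap, so its absence adds little to a call. The lower count rested partly on single PBS libraries, with 1391 without PBS 2, 1440 without PBS 3 and 2222 without PBS 1. PBS 2 and 3 were more alike than any other pair within a group. Their log2 CPM correlated at 0.985, against at most 0.974 in the other pairs. The part of this close pair in the calls was not tested.

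**Figure D1:**
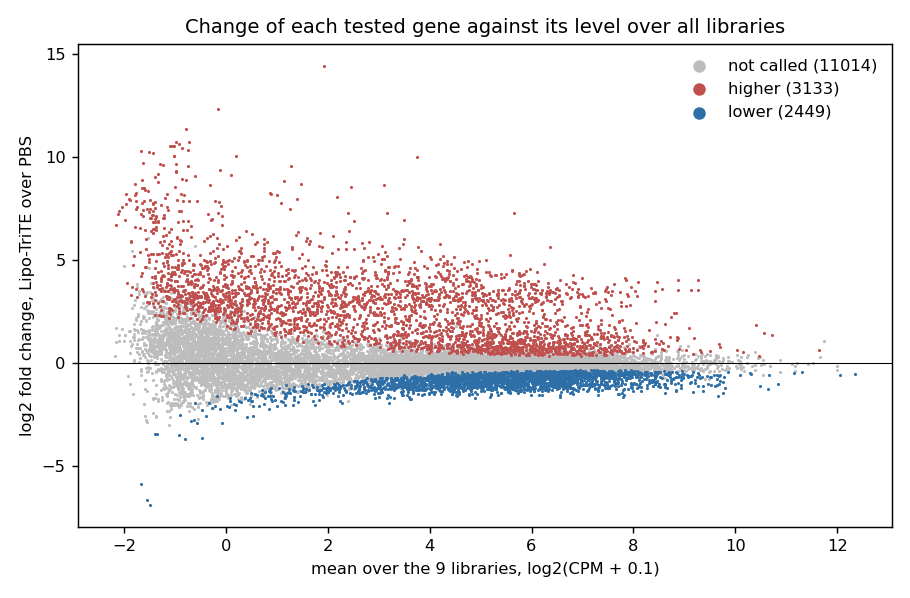
Each point is one tested gene, with its mean log2(CPM + 0.1) over the 9 libraries on the x axis and its log2 fold change, Lipo-TriTE over PBS, on the y axis. Most of the 2449 lower genes lie within a narrow band under 0, and the 3133 higher genes spread more widely above it.

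Among protein-coding genes grouped by their geometric mean over all 9 libraries, the share called lower was 9.49% at 2 to 10 CPM and 26.9% above 100 CPM, whereas the share called higher was 29.1% and 13%. At up to 2 CPM the shares were 1.31% lower and 26.4% higher. Genes at the low end of that bin can pass the filter on low counts only through libraries where they are high, so nothing is read from it. By deposited gene length the lower share went from 4.23% at up to 1 kb to 24.3% above 8 kb. Long genes also took a smaller share of the counts in Lipo-TriTE: those above 8 kb held 16.7%, 18.7% and 19.7% of counts in PBS 1, 2 and 3 and 17.2%, 16.9% and 15.1% in Lipo-TriTE 1, 2 and 3. The ranges of the groups overlapped, and the part of length in the calls was not tested. By chromosome, the lower share was 25.7% on chromosome 2, 25.5% on chromosome 12 and 22% on chromosome 3, against 17.5% of all 13254 protein-coding genes and 12.7% on chromosome 7. On chromosome 12 the higher share was 10.3%, against 19.2% of all protein-coding genes.

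**Figure D2:**
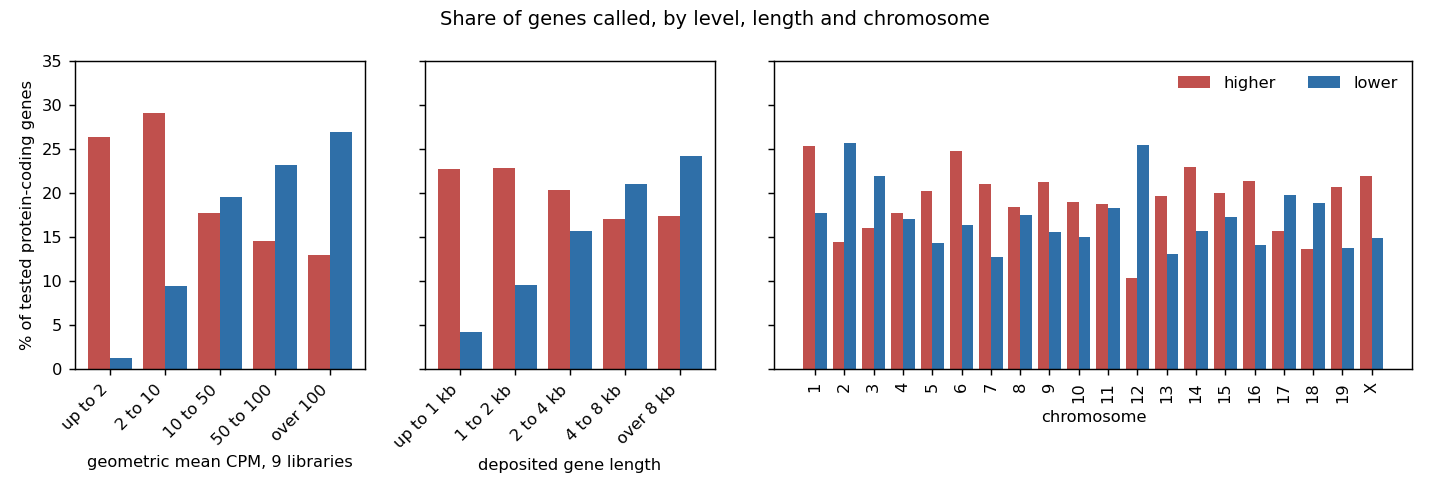
Bars give the percentage of tested protein-coding genes called higher or lower in Lipo-TriTE against PBS, by geometric mean CPM over the 9 libraries, by deposited gene length and by chromosome. Lower calls stand at 9.49% at 2 to 10 CPM and 26.9% above 100 CPM, and at 25.7% and 25.5% on chromosomes 2 and 12.

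Genes of the fibrillar collagens and of their maturation were lower as a block in Lipo-TriTE tumours. Of 28 tested members 20 were lower and 0 higher (background 14.8% and 18.9%), the median log2 fold change was −1.06, against 0.00 over all genes, and 27 of 28 were below 0. No member was called higher at any library left out, and 17 to 21 were called lower. Collagen genes of every type were less uniform. Of 31 tested, 14 were lower and 1 higher, 11 lay above 0, and the median log2 fold change was −1.04. Without Lipo-TriTE 2 or 3 or PBS 2 or 3, 0 of them were higher. Col3a1, a collagen of stretchable tissue, had 1908, 2836 and 2773 CPM in the PBS libraries and 1317, 1009.6 and 835 CPM in the Lipo-TriTE libraries. Its groups did not overlap, and Lipo-TriTE was 2.38-fold lower (log2 fold change −1.25, SE 0.24, edgeR adjusted p = 0.0031). Serpinh1, the chaperone HSP47 that folds procollagen in the endoplasmic reticulum, stood at 1318, 1414 and 1432 CPM in the PBS libraries and 509.7, 705 and 612 CPM in the Lipo-TriTE libraries. Here too the groups lay apart, at 2.28-fold lower (log2 fold change −1.19, SE 0.20, edgeR adjusted p = 0.0014).

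Enzymes that modify and trim collagen fell beside the chains themselves. Crtap, a partner in proline 3-hydroxylation, had 122, 152 and 151 CPM in the PBS libraries and 64.9, 76.2 and 61.0 CPM in the Lipo-TriTE libraries (log2 fold change −1.07, SE 0.16, edgeR adjusted p = 0.00065). Fkbp10, a prolyl isomerase of procollagen, had 259, 282 and 266 CPM in the PBS libraries and 115, 125 and 110.4 CPM in the Lipo-TriTE libraries (log2 fold change −1.21, SE 0.19, edgeR adjusted p = 0.00095). Loxl2, which crosslinks collagen by oxidising lysines, had 275, 257 and 265 CPM in the PBS libraries and 96.3, 139 and 123 CPM in the Lipo-TriTE libraries (log2 fold change −1.15, SE 0.18, edgeR adjusted p = 0.00099). In all 3 the libraries of the groups lay apart. Loxl3, a relative of Loxl2, fell 1.97-fold, and Bmp1, the protease that removes the C-terminal propeptide of procollagen, fell 2.31-fold. Among the 8 members not called, Col1a2 and Col12a1 had log2 fold changes of −1.11 each and Col11a1 one of 0.49. Against Lipo-BiTE tumours, where 5.21% of all genes were lower in Lipo-TriTE and 4.88% higher, 10 of the 28 were lower and 1 was higher.

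Basement membrane genes moved the same way, with 12 of 17 tested members lower and 2 higher and a median log2 fold change of −1.13. The basement membrane is the sheet of laminin, type IV collagen, nidogen and perlecan on which epithelia and vessels rest. Nid1, nidogen 1, which ties laminin to type IV collagen, had 2057, 2011 and 2160 CPM in the PBS libraries and 794, 1131 and 918 CPM in the Lipo-TriTE libraries. Nid1 fell 2.19-fold with no overlap (log2 fold change −1.13, SE 0.18, edgeR adjusted p = 0.0011). Lamb1 and Lamc1, 2 chains of the most widespread laminins, fell 2.14-fold and 2.32-fold, and Lamc1 had 560, 757 and 809 CPM in the PBS libraries and 299, 353 and 263 CPM in the Lipo-TriTE libraries (log2 fold change −1.22, SE 0.19, edgeR adjusted p = 0.00095).

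Some members of this list had uneven PBS libraries. Hspg2, perlecan, had 592, 1431 and 1573 CPM in the PBS libraries and 449.7, 506 and 253 CPM in the Lipo-TriTE libraries (log2 fold change −1.57, SE 0.36, edgeR adjusted p = 0.008), and Lama5, a laminin chain of mature epithelia, had 628, 1474 and 1592 CPM in the PBS libraries and 488, 556 and 329 CPM in the Lipo-TriTE libraries (log2 fold change −1.43, SE 0.33, edgeR adjusted p = 0.0078). For both genes PBS 1 lay at less than the other PBS libraries by a wide margin, yet above every Lipo-TriTE library. Without a filter on low counts the edgeR adjusted p of Hspg2 was 0.06. Col4a1, a type IV collagen chain, showed the same unevenness, with 375, 680.5 and 712 CPM in the PBS libraries and 261, 212 and 164 CPM in the Lipo-TriTE libraries (log2 fold change −1.47, SE 0.28, edgeR adjusted p = 0.0027). Outside this list, Col7a1, the collagen of anchoring fibrils beneath epithelia, was among the 15 largest falls of called genes with at least 5 CPM and no overlap. Col7a1 had 193, 483 and 477 CPM in the PBS libraries and 134, 137 and 104 CPM in the Lipo-TriTE libraries (log2 fold change −1.62, SE 0.33, edgeR adjusted p = 0.0043). The 12 lower calls of the list ranged from 11 to 13 with single libraries left out, so they did not rest on PBS 1. Lamb3, a laminin chain of skin and other epithelia, went against the list with 1.26, 1.65 and 2.38 CPM in the PBS libraries and 12.9, 18.4 and 17.5 CPM in the Lipo-TriTE libraries (9.11-fold higher, edgeR adjusted p = 0.0005), and Nid2, nidogen 2, rose 4.32-fold. In Lipo-TriTE against Lipo-BiTE 10 of the 17 were lower and 0 higher.

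Other matrix lists were lower or mixed. Of 22 tested matricellular and elastic fibre genes 13 were lower and 0 higher, with a median log2 fold change of −0.96. Fbn2, fibrillin 2 of elastic microfibrils, had 46.9, 59.1 and 66.5 CPM in the PBS libraries and 15.6, 22.6 and 14.5 CPM in the Lipo-TriTE libraries (3.28-fold lower, edgeR adjusted p = 0.0014), and Tnc, tenascin C of remodelling tissue, had 154, 189 and 200.1 CPM in the PBS libraries and 61.1, 74.9 and 58.8 CPM in the Lipo-TriTE libraries (log2 fold change −1.48, SE 0.18, edgeR adjusted p = 0.00022). The highest Lipo-TriTE library was below the lowest PBS library for each. Ltbp4, a member of the TGF-beta list that stores the latent factor in the matrix, fell 3.14-fold, with 93.6, 174 and 171 CPM in the PBS libraries and 55.2, 49.1 and 34.9 CPM in the Lipo-TriTE libraries. Of 24 matrix proteases and inhibitors 12 were lower and 4 higher. Mmp14, a membrane-bound collagenase, fell 2.20-fold (log2 fold change −1.14, SE 0.16, edgeR adjusted p = 0.00044) and Timp2, an inhibitor of such enzymes, 1.83-fold, while Adam19, a membrane protease, rose from 9.70 ± 3.60 to 86.8 ± 19.9 CPM (SD, n = 3 each). The other higher members were Mmp8, Mmp12 and Mmp9, proteases well known from neutrophils and macrophages. Vcan, a large proteoglycan, rose 5.51-fold against the direction of its list, in which 5 of 15 were lower, among them Sdc1, a cell-surface heparan sulfate proteoglycan, at 217, 221 and 216 CPM in the PBS libraries and 91.5, 123 and 109 CPM in the Lipo-TriTE libraries.

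Genes that mark a mesenchymal state were lower in 11 of 18 cases and higher in 3. Vim, the intermediate filament of mesenchymal cells, had 5191, 5239.6 and 4775 CPM in the PBS libraries and 2986, 3956 and 3414 CPM in the Lipo-TriTE libraries. The fall was 1.47-fold (log2 fold change −0.55, SE 0.14, edgeR adjusted p = 0.011), and the call was lost without PBS 2 or without Lipo-TriTE 1. Twist1, a transcription factor of mesoderm, had 71.4, 92.4 and 78.8 CPM in the PBS libraries and 33.5, 38.6 and 40.3 CPM in the Lipo-TriTE libraries (log2 fold change −1.11, SE 0.19, edgeR adjusted p = 0.0015). Itgb1, an integrin chain carried by most cells including leukocytes, and Tgfbi, a secreted adhesion protein, rose instead, with 29.3, 28.9 and 29.8 CPM in PBS and 324, 247 and 269.8 CPM in Lipo-TriTE for Itgb1. Epithelial genes split as well: of 18 tested, 7 were higher and 4 lower. Krt8 fell 1.89-fold (log2 fold change −0.92, SE 0.22, edgeR adjusted p = 0.0098), and Tjp1 and Jup, parts of tight junctions and of desmosomes, fell 2.24-fold and 2.26-fold. Cdh1, E-cadherin, which some leukocytes also carry, rose 9.27-fold from 4.00 ± 1.04 to 36.9 ± 11.9 CPM (SD, n = 3 each). The higher members were Cdh1, F11r, Spint1, St14, Cldn1, Perp and Krt7. Of 16 contractile genes 8 were lower and 3 higher (1 higher without Lipo-TriTE 1 or PBS 3), and the lower ones included Vcl, vinculin of focal adhesions, at 249, 297 and 332 CPM in the PBS libraries and 113, 164 and 124 CPM in the Lipo-TriTE libraries.

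**Figure D3:**
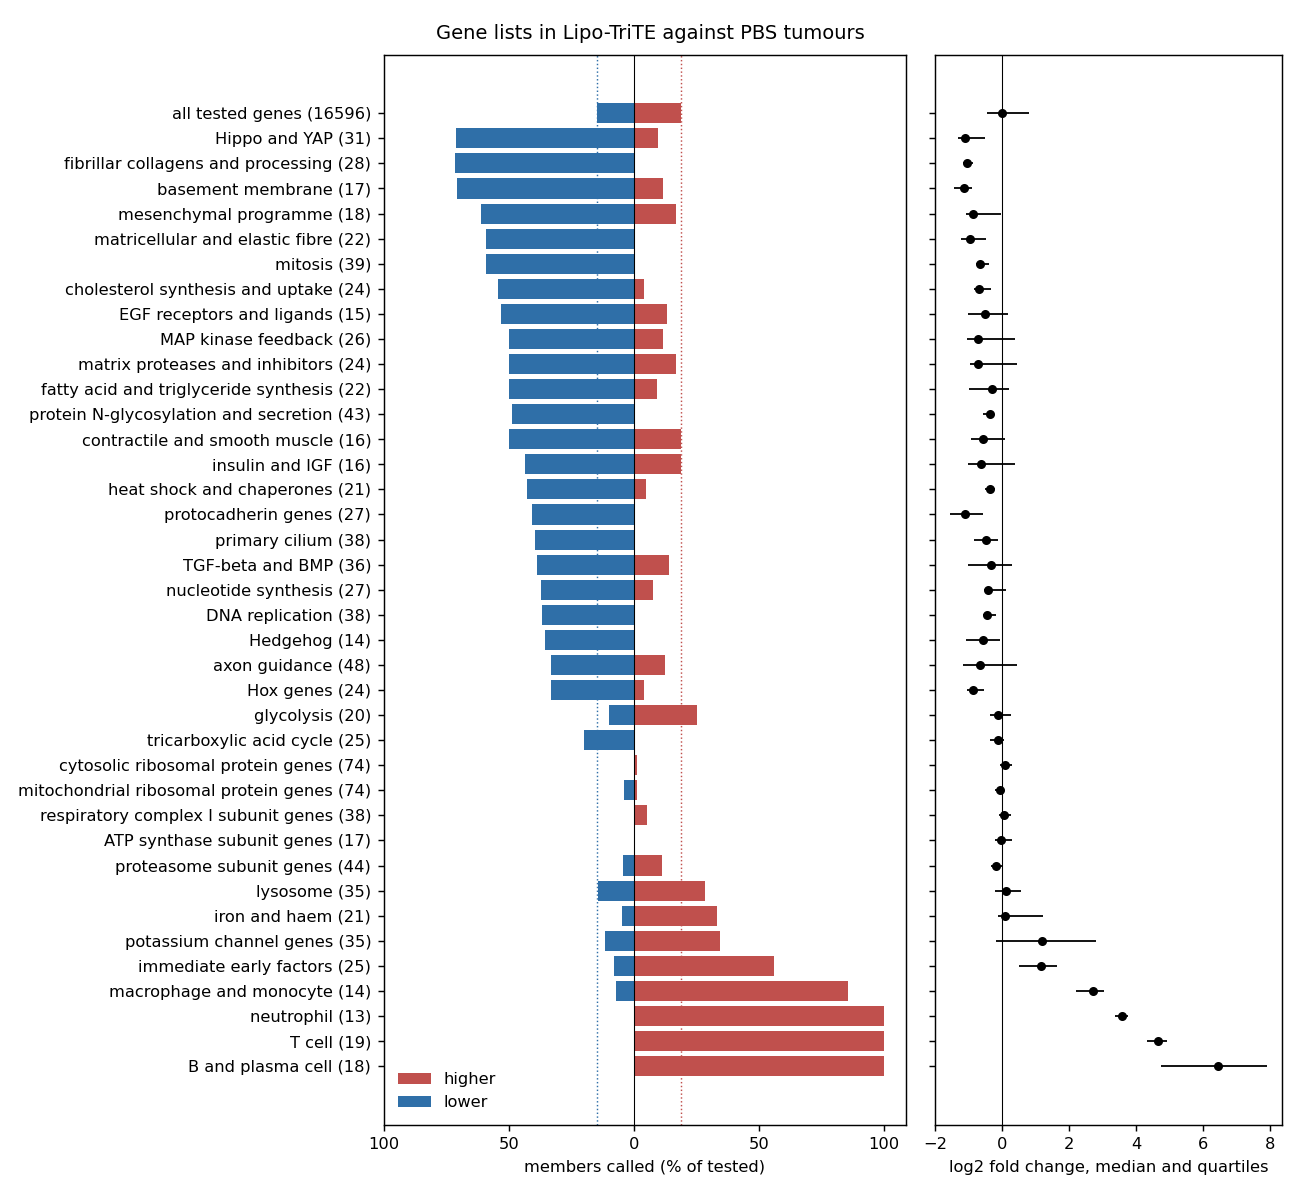
For each gene list, with the number of tested members in brackets, bars give the percentage called lower (left) and higher (right) in Lipo-TriTE against PBS, with dotted lines at 14.8% and 18.9% of all tested genes. Points and lines give the median and quartiles of the log2 fold change; matrix, Hippo, mitosis and lipid lists extend to the left, ribosomal and respiratory lists stay near 0, and leukocyte lists extend to the right.

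In the Hippo and YAP list 22 of 31 tested members were lower and 3 higher, with a median log2 fold change of −1.11. With single libraries left out 20 to 22 were lower, and 16 still were when the fold was tested against 1.5. Yap1, the coactivator YAP, had 214, 236 and 242 CPM in the PBS libraries and 92.7, 111 and 106 CPM in the Lipo-TriTE libraries. Its libraries did not overlap, and Lipo-TriTE was 2.23-fold lower (log2 fold change −1.16, SE 0.17, edgeR adjusted p = 0.00057). All of the partners Tead1, Tead2, Tead3 and Tead4 were called lower, with log2 fold changes of −1.26, −1.11, −1.16 and −1.07, and so was Wwtr1, which encodes TAZ (−0.96).

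Cyr61 and Ctgf, textbook targets of YAP, were called lower. Cyr61, a secreted matricellular protein, had 73.3, 81.3 and 83.1 CPM in the PBS libraries and 26.2, 32.7 and 29.9 CPM in the Lipo-TriTE libraries (log2 fold change −1.42, SE 0.23, edgeR adjusted p = 0.0011), and Ctgf, its relative, had 7.42, 5.02 and 5.82 CPM in the PBS libraries and 1.75, 1.84 and 1.49 CPM in the Lipo-TriTE libraries (log2 fold change −1.84, SE 0.36, edgeR adjusted p = 0.0032). Neither gene had an overlap between the groups. The third classical target, Ankrd1, had a log2 fold change of −1.50 and did not pass the test. Ptpn14, a phosphatase that binds YAP, had 84.8, 105 and 115 CPM in the PBS libraries and 40.1, 44.2 and 38.4 CPM in the Lipo-TriTE libraries (log2 fold change −1.31, SE 0.19, edgeR adjusted p = 0.00068). Members against the direction were Stk4, the Hippo kinase MST1, which is also abundant in lymphocytes, with 96.9, 81.8 and 80.9 CPM in the PBS libraries and 252, 214 and 205 CPM in the Lipo-TriTE libraries, Nuak2, a stress kinase that rose 12-fold, and Mob1a, a cofactor of the LATS kinases that rose 1.41-fold. Of the LATS kinases, Lats1 was called lower, with a log2 fold change of −0.41, and Lats2 was not called, with 0.09. Lipo-TriTE tumours were also below Lipo-BiTE tumours in 14 of the 31 and above in 1. For Cyr61 that difference was −1.54 on the log2 scale (edgeR adjusted p = 0.0045), and for Yap1 −0.77 (edgeR adjusted p = 0.018).

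Promoters of these genes are shown because TEAD proteins are known to bind the letters GGAATG. RefSeq sequences (build GRCm38.p6) of the 250 bases before the first listed start were found for 23 of the 31 members, and 12 of the 23 (52.2%) held GGAATG on either strand, against 10.2% of 10396 tested genes and 12.6% of all 27025 promoters. A match is a description of letters and not a binding site. The list was chosen for this pathway and includes known YAP targets, so a high share can come from that choice. The share covers members called and not called, and its link to the falls was not tested. The 3 lower members of smallest p with a match are printed 5′ to 3′ on the gene's strand, with the match in capitals (CATTCC is the same word read from the other strand). They lie at chr9:8004597-8004846, minus strand for Yap1, chr1:189728018-189728267, plus strand for Ptpn14 and chr3:145649986-145650235, minus strand for Cyr61.
Yap1: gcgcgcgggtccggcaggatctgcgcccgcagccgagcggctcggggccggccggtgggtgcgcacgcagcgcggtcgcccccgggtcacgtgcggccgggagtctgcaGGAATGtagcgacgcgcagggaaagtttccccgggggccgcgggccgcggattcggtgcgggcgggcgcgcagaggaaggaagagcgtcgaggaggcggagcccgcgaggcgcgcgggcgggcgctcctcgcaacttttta
Ptpn14: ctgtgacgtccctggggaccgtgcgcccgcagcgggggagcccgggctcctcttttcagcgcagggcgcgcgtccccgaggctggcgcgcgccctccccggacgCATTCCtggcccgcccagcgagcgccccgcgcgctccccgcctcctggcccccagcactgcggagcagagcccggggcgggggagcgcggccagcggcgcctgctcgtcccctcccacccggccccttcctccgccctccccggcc
Cyr61: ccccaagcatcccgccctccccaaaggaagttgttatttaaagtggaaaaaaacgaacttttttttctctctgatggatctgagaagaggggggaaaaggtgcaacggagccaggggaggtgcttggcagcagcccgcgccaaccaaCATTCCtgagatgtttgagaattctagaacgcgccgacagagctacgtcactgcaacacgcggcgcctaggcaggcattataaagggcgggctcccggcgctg

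Growth factor signalling genes that sit around the Ras and MAP kinase cascade were lower too. Of 15 EGF receptor and ligand genes 8 were lower and 2 higher, with 5 lower without Lipo-TriTE 1 and 1 higher without Lipo-TriTE 2, PBS 2 or PBS 3. Tgfa and Ereg, ligands of the EGF receptor, had 38.3, 42.4 and 46.5 CPM in the PBS libraries and 12.6, 17.6 and 15.5 CPM in the Lipo-TriTE libraries for Tgfa (log2 fold change −1.48, SE 0.21, edgeR adjusted p = 0.00058) and a 2.91-fold lower level for Ereg. Lrig1, a brake on EGF family receptors, fell 2.10-fold. Mouse Erbb2 had 17.1, 23.6 and 23.2 CPM in the PBS libraries and 9.32, 9.14 and 7.71 CPM in the Lipo-TriTE libraries, with no overlap (log2 fold change −1.28, SE 0.24, edgeR adjusted p = 0.0024), and the sources do not say whether the added HER2 would be counted there. The receptor gene Egfr itself had a log2 fold change of 0.28 and was not called, and Erbb3 and Nrg2 were the higher members.

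Of 26 genes that respond to or damp MAP kinase signals 13 were lower and 3 higher, with a median log2 fold change of −0.71. Spred1, an inhibitor of Ras signalling, had 411, 439 and 453 CPM in the PBS libraries and 185, 223 and 212 CPM in the Lipo-TriTE libraries (log2 fold change −1.07, SE 0.14, edgeR adjusted p = 0.00031). Etv4 and Etv1, ETS factors that the cascade switches on, fell 2.31-fold and 2.41-fold, with 230.4, 276 and 291 CPM in the PBS libraries and 114, 128 and 104 CPM in the Lipo-TriTE libraries for Etv4. Spry2, Spry4, Spred2, Dusp4 and Dusp6, feedback inhibitors, were lower as well, with log2 fold changes of −0.81, −1.23, −0.97, −0.65 and −0.51. Rasgrp1, a Ras activator of lymphocytes, rose 20.7-fold, and Dusp1 and Dusp10, phosphatases of stress kinases, rose 5.47-fold and 2.57-fold. Against Lipo-BiTE 12 of the 26 were lower and 0 higher, and 5 of the 15 EGF genes were lower.

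Developmental pathways showed smaller counts. In the Hedgehog list 5 of 14 were lower and 0 higher. Smo, the transducer of the signal, had 61.8, 78.7 and 77.0 CPM in the PBS libraries and 26.0, 37.1 and 23.5 CPM in the Lipo-TriTE libraries (log2 fold change −1.33, SE 0.22, edgeR adjusted p = 0.0014). Gli2 and Gli3, the transcription factors at its end, fell 2.70-fold and 2.38-fold, whereas the target genes Gli1 and Ptch1 were not called, with log2 fold changes of 1.19 and −0.16. Of 37 Wnt genes 12 were lower and 6 higher. Fzd6, a Wnt receptor, fell 2.09-fold (log2 fold change −1.07, SE 0.14, edgeR adjusted p = 0.00036), while Lef1 and Tcf7, Wnt effectors that are also T cell factors, rose 32.9-fold and 12.6-fold. Of 36 TGF-beta and BMP genes 14 were lower and 5 higher (3 without PBS 3). Tgfb3, a TGF-beta ligand, had 144, 139 and 128 CPM in the PBS libraries and 54.5, 70.8 and 61.8 CPM in the Lipo-TriTE libraries, and Id2, a helix-loop-helix protein of BMP targets and lymphoid cells, rose 8.20-fold. Insulin and IGF genes were lower in 7 of 16 cases, among them Igf2bp1, an RNA-binding protein of fetal and tumour cells, at 99.8, 137 and 144 CPM in the PBS libraries and 49.8, 58.5 and 51.0 CPM in the Lipo-TriTE libraries (log2 fold change −1.26, SE 0.19, edgeR adjusted p = 0.00085).

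Of 24 Hox genes 8 were lower and 1 (Hoxb4) higher, with a median log2 fold change of −0.87. Hoxc10 had 29.0, 33.7 and 32.9 CPM in the PBS libraries and 12.7, 13.5 and 16.1 CPM in the Lipo-TriTE libraries (log2 fold change −1.18, SE 0.19, edgeR adjusted p = 0.00097), and the other lower ones were Hoxa7, Hoxa9, Hoxa10, Hoxa11, Hoxc6, Hoxd8 and Hoxd9. Without Lipo-TriTE 1 or without PBS 2, 5 were lower, and the call of Hoxb4 was lost without Lipo-TriTE 1 or 3 or PBS 1 or 3. Of 74 genes of the homeobox class 22 were lower and 6 higher. Dlx1, a homeobox factor of forebrain and face, was among the 15 largest falls with 11.1, 8.09 and 9.62 CPM in the PBS libraries and 2.14, 2.79 and 2.66 CPM in the Lipo-TriTE libraries (log2 fold change −1.93, SE 0.31, edgeR adjusted p = 0.0011). Sox9, a factor of cartilage and epithelial progenitors, fell 2.56-fold.

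The 15 largest falls also included Ina, a neurofilament protein, with 24.3, 17.8 and 18.7 CPM in the PBS libraries and 6.80, 7.36 and 4.21 CPM in the Lipo-TriTE libraries (log2 fold change −1.72, SE 0.29, edgeR adjusted p = 0.0013), Unc5a, a netrin receptor, with 38.8, 66.3 and 62.9 CPM in the PBS libraries and 21.4, 20.4 and 11.7 CPM in the Lipo-TriTE libraries (3.13-fold lower), and Wasf1, an actin regulator of the WAVE family, with 15, 10.2 and 10.5 CPM in the PBS libraries and 4.13, 3.81 and 3.50 CPM in the Lipo-TriTE libraries (3.11-fold lower). Markers of Schwann cells and nerve showed no common direction, with 2 higher and 2 lower of 9 tested. For Ina, Unc5a and Wasf1 the libraries of the groups did not overlap, which was a condition for a place among these falls. The other genes of the 15 were Aff2, Cacna1b, Ctgf, Pcdh17, Pcdh19, Fbn2, Npr2, Cachd1, Rps6ka6, Ltbp4, Dlx1 and Col7a1, with log2 fold changes from −2.04 (Aff2) to −1.62 (Col7a1). Calls of Cacna1b and Pcdh17 were lost without PBS 3, and that of Pcdh17 also without Lipo-TriTE 2 or 3. Protocadherins, adhesion molecules best known from neurons, were lower in 11 of 27 cases and higher in 0, with a median log2 fold change of −1.11. Pcdh7 had 145, 145 and 165 CPM in the PBS libraries and 49.3, 73.0 and 65.6 CPM in the Lipo-TriTE libraries (log2 fold change −1.28, SE 0.20, edgeR adjusted p = 0.00081). Members of the gamma cluster share their 3′ exons, so counts of single gamma genes are uncertain. Of 48 semaphorin, plexin, ephrin and slit genes 16 were lower and 6 higher. Plxna2, a semaphorin receptor, fell 2.64-fold, while Sema4d and Sema4a, semaphorins of leukocytes, rose 10-fold and 10.5-fold.

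**Figure D4:**
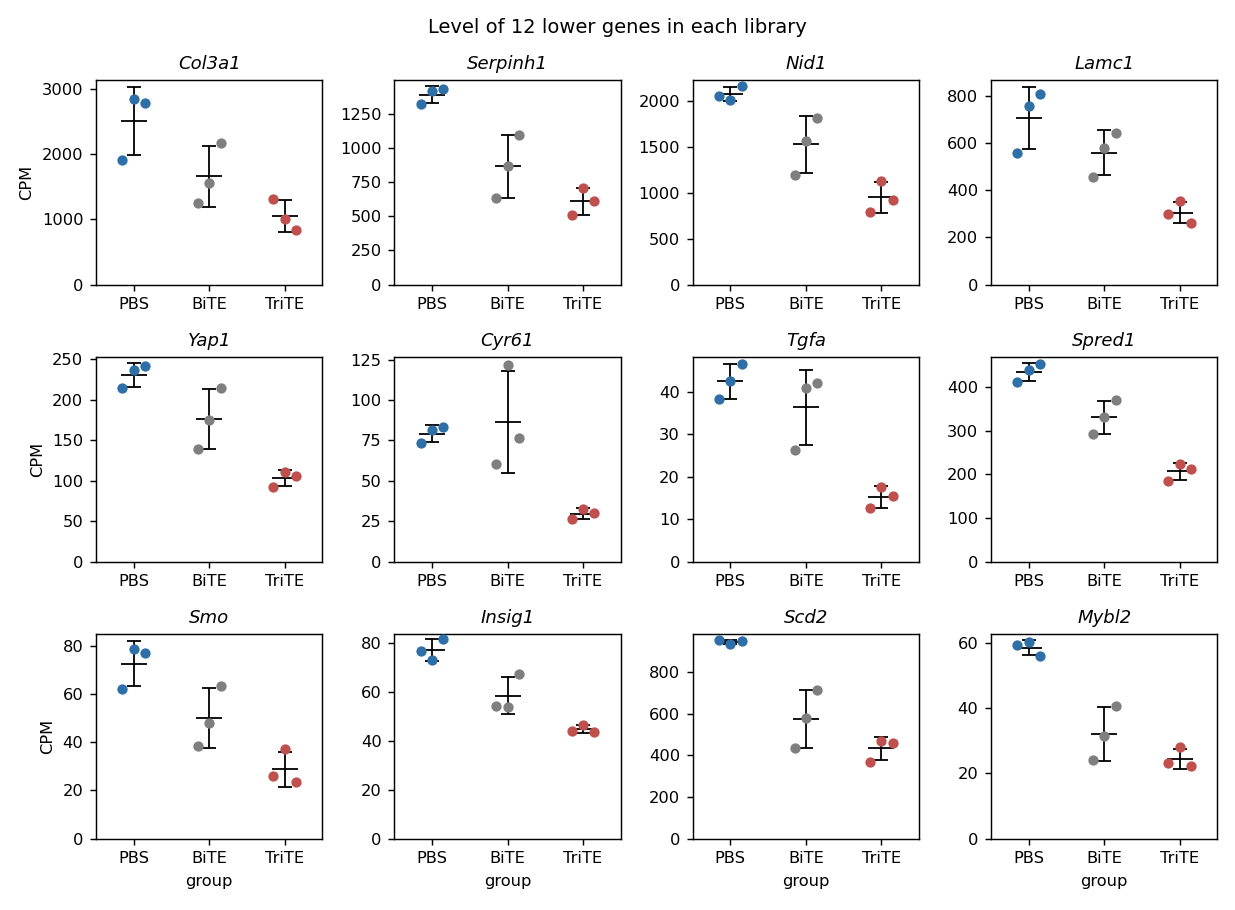
Points are the CPM of 12 lower genes in each of 3 libraries of PBS, Lipo-BiTE and Lipo-TriTE, with the mean (bar) and SD (whiskers), on axes that start at 0. In every panel the 3 Lipo-TriTE libraries lie below the 3 PBS libraries, and for Cyr61 the Lipo-BiTE libraries lie between 60.6 and 122 CPM.

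The primary cilium, a sensory antenna through which Hedgehog signals pass, had 15 of 38 genes lower and 0 higher (2 higher without Lipo-TriTE 2), with a median log2 fold change of −0.48. Ift122 and Ift43, parts of the train that carries cargo back from the tip, had 49.1, 45 and 50.6 CPM in the PBS libraries and 25.9, 28.3 and 26.1 CPM in the Lipo-TriTE libraries for Ift122 (log2 fold change −0.85, SE 0.17, edgeR adjusted p = 0.0036) and a 1.86-fold lower level for Ift43. Kif3a, a motor subunit that drives the outward train, had 77.6, 66.2 and 74.3 CPM in the PBS libraries and 29.7, 46.1 and 44.3 CPM in the Lipo-TriTE libraries (log2 fold change −0.86, SE 0.19, edgeR adjusted p = 0.0059). The 15 log2 fold changes ran from −1.06 (Wdr35) to −0.68 (Bbs2), and 0 passed when the fold was tested against 1.5. Against Lipo-BiTE 0 of 38 were called either way by edgeR, with 3 lower and 2 higher at an unadjusted p under 0.05.

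Mitotic genes were lower in 23 of 39 cases and higher in 0, with a median log2 fold change of −0.66, and 38 of 39 were below 0. This count moved with single libraries: it was 6 without Lipo-TriTE 1, 13 without Lipo-TriTE 2, 15 without PBS 1 and 8 without PBS 2 or PBS 3, and 1 passed when the fold was tested against 1.5. Mybl2, a transcription factor of the late cell cycle, had 59.2, 60.2 and 55.8 CPM in the PBS libraries and 23.1, 28.0 and 22.4 CPM in the Lipo-TriTE libraries, well apart (log2 fold change −1.25, SE 0.19, edgeR adjusted p = 0.00087). Aurka, the kinase of the spindle poles, had 73.2, 68.2 and 66.2 CPM in the PBS libraries and 31.4, 42.7 and 36.8 CPM in the Lipo-TriTE libraries (log2 fold change −0.90, SE 0.19, edgeR adjusted p = 0.0047), and Anln, a scaffold of the cleavage furrow, had 133, 132 and 133 CPM in the PBS libraries and 56.8, 79.7 and 62.5 CPM in the Lipo-TriTE libraries (log2 fold change −1.0, SE 0.22, edgeR adjusted p = 0.0059). Mki67, the usual proliferation marker, had 220.5, 195 and 214 CPM in the PBS libraries and 177, 180.2 and 153 CPM in the Lipo-TriTE libraries, which did not pass the test (log2 fold change −0.30, SE 0.16, edgeR adjusted p = 0.17). Pttg1, securin, was the member above 0, with a log2 fold change of 0.67 that did not pass. Summed over the list the level was 3282, 3123 and 3102 CPM in PBS and 1854, 2184 and 2109 CPM in Lipo-TriTE, with 1867, 2140 and 3181 CPM in Lipo-BiTE. In Lipo-TriTE against Lipo-BiTE 0 of 39 were called by edgeR, with 4 lower and 0 higher at an unadjusted p under 0.05.

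Promoters of mitotic genes often hold a CCAAT box together with the CHR element, which read as CCAAT and TTTGAA, and some hold an E2F word, here TTCCCGC or TTGGCGC, whose second form can share letters with a CCAAT box. Sequences were found for 32 of the 39 members. Of these, 22 (68.8%) held CCAAT on either strand and 10 (31.3%) held TTTGAA. The shares were 35.6% and 10.8% of tested genes with a sequence, and 34.5% and 16.3% of all promoters. An E2F word was held by 4 (12.5%), against 9.94% of tested genes. CCAAT was also held by 93.8% of cholesterol, 63.3% of replication, 56.3% of cilium and 46.2% of basement membrane genes. The Hippo and collagen lists had 34.8% and 27.8%. The mitosis list was chosen for that process, so a high share can come from that choice. Its link to the falls was not tested. The 3 lower members of smallest p with CCAAT and with TTTGAA or an E2F word, picked for those letters after their values were seen, are printed as before, with every match in capitals. They lie at chr17:24251410-24251659, minus strand for Ccnf, chr10:69352913-69353162, minus strand for Cdk1 and chr11:99024190-99024439, minus strand for Top2a.
Ccnf: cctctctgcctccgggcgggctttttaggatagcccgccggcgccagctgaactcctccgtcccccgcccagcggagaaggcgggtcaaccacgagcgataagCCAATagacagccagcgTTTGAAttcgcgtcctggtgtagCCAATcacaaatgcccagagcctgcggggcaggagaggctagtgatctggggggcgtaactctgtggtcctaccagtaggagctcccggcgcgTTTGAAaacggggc
Cdk1: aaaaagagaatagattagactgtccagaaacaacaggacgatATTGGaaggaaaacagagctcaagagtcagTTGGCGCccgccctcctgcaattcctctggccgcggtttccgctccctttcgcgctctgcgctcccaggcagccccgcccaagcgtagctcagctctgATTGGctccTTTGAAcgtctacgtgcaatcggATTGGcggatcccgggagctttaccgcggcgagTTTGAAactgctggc
Top2a: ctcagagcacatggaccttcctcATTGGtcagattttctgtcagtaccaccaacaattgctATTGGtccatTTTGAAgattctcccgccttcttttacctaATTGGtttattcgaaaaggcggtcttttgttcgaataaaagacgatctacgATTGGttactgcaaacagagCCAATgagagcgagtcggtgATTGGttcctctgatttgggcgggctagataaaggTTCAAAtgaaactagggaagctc

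These 3 genes had modest falls. Ccnf, a cyclin of the SCF ubiquitin ligase, had 63.3, 75.1 and 81.3 CPM in the PBS libraries and 27.0, 50.8 and 35.8 CPM in the Lipo-TriTE libraries (log2 fold change −0.95, SE 0.26, edgeR adjusted p = 0.016). Cdk1, the kinase that starts mitosis, had 86.2, 80.6 and 82.6 CPM in the PBS libraries and 40.4, 48.0 and 58.8 CPM in the Lipo-TriTE libraries (log2 fold change −0.76, SE 0.21, edgeR adjusted p = 0.018), and Top2a, the topoisomerase that untangles chromosomes, fell 1.60-fold (edgeR adjusted p = 0.025). In each the lowest PBS library was above the highest Lipo-TriTE library.

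DNA replication and its supply chain followed with smaller changes. Of 38 replication genes 14 were lower and 0 higher, with a median log2 fold change of −0.44, and with single libraries left out the count was 5 without Lipo-TriTE 2, 7 without PBS 2 or PBS 3 and 9 without PBS 1. Mcm10, which loads polymerases at origins, had 40.9, 33.2 and 34.1 CPM in the PBS libraries and 19.2, 21.0 and 21.4 CPM in the Lipo-TriTE libraries (log2 fold change −0.81, SE 0.16, edgeR adjusted p = 0.0032), and Mcm6, a subunit of the replicative helicase, had 328, 299 and 282 CPM in the PBS libraries and 213, 203 and 205 CPM in the Lipo-TriTE libraries, a 1.46-fold difference. Nucleotide synthesis genes were lower in 10 of 27 cases and higher in 2, with 4 lower without PBS 2 and 6 without PBS 3 or Lipo-TriTE 1. Rrm2, a subunit of ribonucleotide reductase, had 195, 152 and 149 CPM in the PBS libraries and 70.5, 85.0 and 103 CPM in the Lipo-TriTE libraries (log2 fold change −0.94, SE 0.21, edgeR adjusted p = 0.0064), while Dck, the kinase that salvages deoxynucleosides and is prominent in lymphocytes, rose 2.28-fold. The E2F family, which switches on replication genes or restrains them, had 6 of 9 members lower and E2f2 higher. E2f3, one of its activators, had 76.6, 80.3 and 80.7 CPM in the PBS libraries and 38.5, 44.3 and 41.8 CPM in the Lipo-TriTE libraries (log2 fold change −0.93, SE 0.15, edgeR adjusted p = 0.0012). Control genes of G1 and S phase went both ways, 9 higher and 7 lower of 24. Ccnd2, a D cyclin of lymphocytes, rose 3.60-fold, Rbl2, a pocket protein of resting cells, 2.5-fold, and Myc 8.08-fold, from 3.12, 5.25 and 5.23 CPM in PBS to 63.5, 26.7 and 20.3 CPM in Lipo-TriTE.

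Lipid synthesis was lower at several steps. Of 24 genes of cholesterol synthesis and uptake 13 were lower and 1 higher, with a median log2 fold change of −0.69. Without Lipo-TriTE 2 the count was 8. Insig1, the sensor that holds back SREBP, had 76.8, 73.1 and 82.0 CPM in the PBS libraries and 44.1, 46.8 and 43.8 CPM in the Lipo-TriTE libraries (log2 fold change −0.78, SE 0.14, edgeR adjusted p = 0.0017). Hsd17b7, an enzyme late in sterol synthesis, had 54.8, 61.0 and 55.1 CPM in the PBS libraries and 19.96, 27.7 and 28.8 CPM in the Lipo-TriTE libraries (log2 fold change −1.16, SE 0.20, edgeR adjusted p = 0.0017). The groups did not overlap in either. Hmgcs1, Mvk, Fdft1, Sqle, Lss, Msmo1 and Dhcr7, enzymes from the start to the end of the pathway, were also called lower, with log2 fold changes from −0.77 (Lss) to −0.57 (Dhcr7). Ebp, a sterol isomerase late in the pathway, went the other way and rose 1.85-fold. Srebf2, the master factor of this pathway, had a log2 fold change of −0.35 and was not called.

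Of 22 fatty acid and triglyceride synthesis genes 11 were lower and 2 higher, with 6 lower without PBS 2 or PBS 3 and 7 without Lipo-TriTE 2 or 3. Scd2, a fatty acid desaturase, had 952, 935 and 948 CPM in the PBS libraries and 369.7, 470.3 and 460.2 CPM in the Lipo-TriTE libraries, a narrow PBS range and a 2.18-fold fall (log2 fold change −1.12, SE 0.18, edgeR adjusted p = 0.0012). Elovl6, which lengthens fatty acids, had 240.3, 179 and 196 CPM in the PBS libraries and 73.8, 84.2 and 97.1 CPM in the Lipo-TriTE libraries (log2 fold change −1.27, SE 0.23, edgeR adjusted p = 0.0019). Fasn, the fatty acid synthase, fell 2.03-fold, and Fads2, a desaturase of polyunsaturated fatty acids, 2.87-fold. Acly and Scd1 were not called, with log2 fold changes of −0.16 and −0.10. Against Lipo-BiTE 1 gene of each of the lipid lists was lower and 0 were higher.

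The secretory pathway was lower in breadth but by small amounts. Of 43 genes of N-glycosylation and secretion 21 were lower and 0 higher, with a median log2 fold change of −0.36. It had 8 lower without PBS 2, 12 without Lipo-TriTE 1 and 13 without Lipo-TriTE 2. Sec23a, a coat protein of vesicles that leave the endoplasmic reticulum and carry procollagen, had 229, 191 and 187 CPM in the PBS libraries and 87.9, 125 and 119 CPM in the Lipo-TriTE libraries (log2 fold change −0.87, SE 0.16, edgeR adjusted p = 0.0024). Lman1, a cargo receptor, had 328, 291 and 299 CPM in the PBS libraries and 139.6, 180.2 and 177 CPM in the Lipo-TriTE libraries (log2 fold change −0.89, SE 0.17, edgeR adjusted p = 0.0024), and Kdelr3, which returns residents to the endoplasmic reticulum, fell 2.23-fold. Chaperones were lower in 9 of 21 cases and higher in 1, with 2 lower without Lipo-TriTE 1, 5 without Lipo-TriTE 2, 3 without PBS 2 and 4 without PBS 1 or PBS 3. Hsp90ab1, a constitutive HSP90, had 6294, 6328 and 6064 CPM in the PBS libraries and 3858, 4754 and 4472 CPM in the Lipo-TriTE libraries, the largest loss of CPM among named genes, though its fall was 1.43-fold and the call was lost without PBS 2, without PBS 3 or without Lipo-TriTE 1 (log2 fold change −0.51, SE 0.14, edgeR adjusted p = 0.018). Hspa1b, the inducible HSP70, was the higher one, from 18.3, 30.6 and 31.2 CPM to 133, 168 and 138 CPM (5.48-fold), and it has a near-identical copy in Hspa1a between which reads can be split. Bag3, a cochaperone of HSP70, fell 2.27-fold (log2 fold change −1.18, SE 0.18, edgeR adjusted p = 0.00088).

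Core machinery that most cells share had few calls in many of its lists. Ribosome biogenesis differed, with 9 of 32 genes lower, 0 higher and 31 below 0 (background 14.8% lower). With single libraries left out its lower count ran from 4 (without PBS 2) to 11 (without Lipo-TriTE 3). Aminoacyl-tRNA synthetases had 5 lower and 1 higher of 37, and tricarboxylic acid cycle genes 5 and 0 of 25. With single libraries left out these had 1 to 2 and 1 to 3 lower. Of 74 cytosolic ribosomal protein genes 1 was higher and 0 lower, with a median log2 fold change of 0.10, although their summed level spanned 40702 to 57510 CPM in PBS and 46726 to 61576 CPM in Lipo-TriTE, with PBS 1 and Lipo-TriTE 3 the highest. Mitochondrial ribosomal proteins had 3 lower and 1 higher of 74, complex I of the respiratory chain 2 higher and 0 lower of 38, and ATP synthase 0 of 17 either way by edgeR, with 1 higher and 0 lower at an unadjusted p under 0.05 and 1 higher by DESeq2. Proteasome subunits had 5 higher and 2 lower of 44, and the higher ones were Psmb8, Psmb9, Psmb10, Psme1 and Psme2, which belong to the interferon-induced immunoproteasome and its activator. With single libraries left out the proteasome count ran from 3 (without Lipo-TriTE 1, PBS 2 or PBS 3) to 5 higher and from 0 (without Lipo-TriTE 2 or any 1 PBS library) to 6 lower (without Lipo-TriTE 3), that of complex I from 0 (without Lipo-TriTE 3 or PBS 3) to 4 higher (without PBS 1), and that of mitochondrial ribosomal proteins from 1 (without Lipo-TriTE 2 or PBS 2) to 3 lower. Of 20 glycolysis genes 5 were higher and 2 lower, with 3 and 3 without PBS 1 and 1 lower without any other 1 library. Slc2a3, a glucose transporter of neurons and leukocytes, rose from 10.5, 19.4 and 21.1 CPM in PBS to 106, 155 and 157 CPM in Lipo-TriTE (log2 fold change 3.03, SE 0.46, edgeR adjusted p = 0.00092), and Ldhb, a lactate dehydrogenase subunit, rose 11.1-fold. Slc16a1, the lactate exporter MCT1, fell from 492, 442 and 431 CPM to 193, 276 and 228 CPM (log2 fold change −0.97, SE 0.20, edgeR adjusted p = 0.0042). A p that misses the threshold does not show that the other members were equal.

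**Figure D5:**
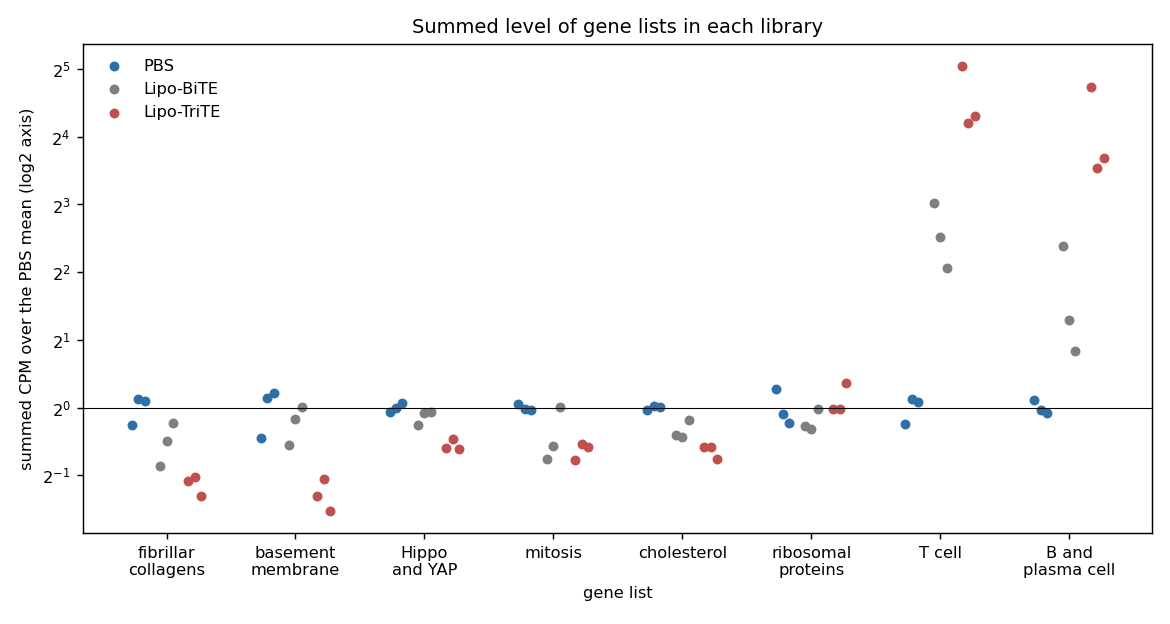
For 8 gene lists the summed CPM of all members in each library is plotted over the mean of the PBS libraries, on a log2 axis. Sums of collagens with their processing genes, basement membrane, Hippo, mitosis and cholesterol genes lie below every PBS library in Lipo-TriTE. Ribosomal sums overlap, and T and B cell sums rise many-fold.

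Sums over all members in the table followed the counts of called members in some lists and not in others. The list of fibrillar collagens and processing held chaperones and enzymes as well as chains. Its genes summed to 6707, 8739 and 8592 CPM in PBS and 3797, 3928 and 3258 CPM in Lipo-TriTE, 2.19-fold lower. Basement membrane genes summed to 6055, 9078 and 9528 CPM in PBS and 3323, 3962 and 2854 CPM in Lipo-TriTE, 2.43-fold lower. Cholesterol genes were 1.56-fold lower, mitotic genes 1.55-fold and Hippo genes 1.47-fold. None of these 5 sums overlapped between the groups. The exact two-sided permutation test over samples gave p = 0.1 for each, which is the smallest p that 3 against 3 libraries allow. The genes that respond to or damp MAP kinase signals, with 13 lower and 3 higher, summed to 2497, 2929 and 3027 CPM in PBS and 2617, 3259 and 2899 CPM in Lipo-TriTE, which overlapped (exact permutation p = 0.8). Within that sum Dusp1 went from 127 ± 31.4 to 698 ± 202 CPM (SD, n = 3 each). The epithelial genes, with 7 higher and 4 lower, summed to 1.73-fold less in Lipo-TriTE, with no overlap. Krt8, Krt18, Tjp1 and Jup, the 4 lower ones, were the most abundant tested members of that list. The call of Krt18 was lost without PBS 2.

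Lists with more higher than lower members outside the leukocyte markers included immediate early genes, iron genes and genes of cell death. Of 25 immediate early genes, which switch on within minutes of a stimulus, 14 were higher and 2 lower (1 lower without Lipo-TriTE 2 or PBS 3), with a median log2 fold change of 1.16. Lipo-TriTE lay below Lipo-BiTE in 7 of the 25 and above in 0. Nr4a3, a nuclear receptor, had 2.89, 2.54 and 2.61 CPM in the PBS libraries and 16.9, 17.2 and 17.7 CPM in the Lipo-TriTE libraries (log2 fold change 2.68, SE 0.33, edgeR adjusted p = 0.00022), and Atf3, a stress factor, 21.7, 27.6 and 22.9 CPM in the PBS libraries and 81.4, 106 and 133 CPM in the Lipo-TriTE libraries (log2 fold change 2.15, SE 0.36, edgeR adjusted p = 0.0015). Fosl1, a Fos relative that MAP kinase signals sustain, fell 2.34-fold against that direction, and Nr4a2 was the other lower one. Iron genes were higher in 7 of 21 cases and lower in 1. The lower one was Aco1, whose call was lost without any 1 library. Slc40a1, the iron exporter ferroportin, had 1.56, 5.31 and 6.00 CPM in the PBS libraries and 30.5, 60.8 and 56.6 CPM in the Lipo-TriTE libraries (log2 fold change 3.50, SE 0.59, edgeR adjusted p = 0.0016). Fth1, the ferritin heavy chain, had 735, 716 and 604 CPM in the PBS libraries and 1182, 2077 and 2498 CPM in the Lipo-TriTE libraries (log2 fold change 1.49, SE 0.39, edgeR adjusted p = 0.015), with Lipo-TriTE 1 the lowest of its group, and its call was lost without PBS 3 or without Lipo-TriTE 3. Lysosomal genes were higher in 10 of 35 cases (6 without PBS 2) and lower in 5 (2 without Lipo-TriTE 1, 3 without PBS 2 or PBS 3), and the lower share of 14.3% is close to that of all tested genes. Psap, a lysosomal activator protein, had 792, 877 and 847 CPM in the PBS libraries and 2512, 2101 and 1972 CPM in the Lipo-TriTE libraries, and Gaa, the acid glucosidase, fell 2.06-fold.

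Of 31 apoptosis and pyroptosis genes 10 were higher and 3 lower, with 6 higher without Lipo-TriTE 3, PBS 2 or PBS 3. Ripk3, a kinase of necroptosis, had 6.01, 2.60 and 4.81 CPM in the PBS libraries and 34.3, 34.0 and 22.9 CPM in the Lipo-TriTE libraries (log2 fold change 2.77, SE 0.45, edgeR adjusted p = 0.0014), and Birc3, an inhibitor of apoptosis, had 33.1, 28.2 and 27.1 CPM in the PBS libraries and 126, 109.9 and 126 CPM in the Lipo-TriTE libraries (log2 fold change 2.04, SE 0.28, edgeR adjusted p = 0.00047). In both the groups lay apart. Mlkl, the effector of necroptosis downstream of Ripk3, was called lower, with a log2 fold change of −0.81, and so was Casp12, with −0.97.

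Some markers listed for fat and muscle also moved with the group. Of 6 tested adipocyte markers 3 were higher and 0 lower, and the sum over the 12 in the table was 52.5 to 65.3 CPM in PBS, 114 to 129 CPM in Lipo-TriTE and 115 to 229 CPM in Lipo-BiTE. The higher ones were Pnpla2, Acsl1 and Lpl, enzymes of lipid handling that other cells carry too, while Adipoq, the adipocyte hormone adiponectin, had 7 counts over the PBS libraries and 6 over the Lipo-TriTE libraries, and Lep, leptin, had 0 in both. Of 8 tested skeletal muscle markers Ryr1, Mylpf, Atp2a1 and Neb were higher and Tnnt3 was lower, a call lost without Lipo-TriTE 1 or any 1 PBS library. Their sum over the 16 in the table was 43.2 to 46.3 CPM in PBS and 56.6 to 73.7 CPM in Lipo-TriTE. Untested muscle markers had few counts over the PBS and Lipo-TriTE libraries and went both ways. Ckm, muscle creatine kinase, had 0 and 11, Myh1 17 and 31, Myh2 13 and 26, Myh4 0 and 16, and Myoz1 6 and 13. Acta1 had 13 and 8, Mb had 6 and 0, and Tnnc2 had 0 in both. The part of these tissues in the results above was not tested.

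The 10 largest rises, with immunoglobulin segments and predicted genes left out, were led by 2 genes almost without counts in PBS. Of the 10, 6 are carried by B cells. Nsg2, a vesicle protein best known from neurons, had 3 counts over the PBS libraries and 2937 over the Lipo-TriTE libraries, a ratio of 892 per effective count total with a 95% counting interval of 305 to 4328, which covers counting error only. Tdrp had 1 and 871 counts, a ratio of 794 with an interval of 142 to 31379. Ms4a1, the B cell protein CD20, had 0.0742, 0.118 and 0.416 CPM in the PBS libraries and 156, 58.2 and 54.0 CPM in the Lipo-TriTE libraries, and Fcmr, Fcer2a, Cr2, Cd79a and Ccr6, which B cells also carry, stood beside it with Ephx1 and Chst3. By gain in CPM the first genes were Tmsb4x, an actin-binding peptide of motile cells, with 885, 589 and 545 CPM in the PBS libraries and 2179, 2109 and 3054 CPM in the Lipo-TriTE libraries, and Cd74, the invariant chain of MHC class II, with 122, 114 and 109.8 CPM in the PBS libraries and 2748, 1591 and 1329 CPM in the Lipo-TriTE libraries. Il1b, Ptprc, Psap, Lcp1, Actb and Fth1 followed. Actb rose 1.55-fold (log2 fold change 0.64, SE 0.18, edgeR adjusted p = 0.021), so this common reference gene differed between the groups, though the call was lost without PBS 1, 2 or 3 or without Lipo-TriTE 2.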

How the data were processed

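RNA of whole tumours was measured in 9 libraries, of which 3 came from PBS tumours, 3 from Lipo-TriTE tumours and 3 from Lipo-BiTE tumours. The authors deposited raw counts per gene, with identifiers of C57BL/6NJ gene models; aligner, counter and strand handling: not given in the sources used here. The columns headed Untreated were taken as the PBS group by elimination. Of 44806 entries 3710 were unnamed loci, 52 names were duplicated and 24 looked like dates. Genes with near-identical copies or overlapping neighbours are uncertain.

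Counts were filtered (filterByExpr), scaled (TMM) and fitted in edgeR 4.0.16 under R 4.3.3 with robust quasi-likelihood F tests on all 9 libraries, with 6 residual degrees of freedom. P-values were adjusted by Benjamini-Hochberg over 16596 genes, and a call needed an adjusted p under 0.05. Fold changes are fitted values, SE is the standard error of the log2 fold change, and list sums were compared by exact permutation tests over samples. Libraries held 13152783 to 20273548 counts; intervals and floors cover counting error only. Alternatives were DESeq2 1.42.0, total-count and upper-quartile scaling, no filter, at least 1 CPM in 3 libraries, the 6 libraries alone, a replicate block, each library left out, and a fold test against 1.5.

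Genes with values were the 15 largest falls and 10 largest rises among called genes with at least 5 CPM and no overlap, the 12 largest losses and 8 largest gains in CPM, up to 4 members of smallest p in each list with those against its direction, and a panel of 7. Other members given by value were chosen after their values were seen, and some members are not reported here by name. Rankings of falls, rises, losses and gains left out predicted gene models, unnamed loci, pseudogenes and segments of T cell receptors and immunoglobulins. The members and lists were chosen with earlier results of these data known. Promoter sequences are from RefSeq on GRCm38.p6, matched by symbol, and no coordinates of the counts' own build were mixed with them.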

Additional observations from a re-analysis of the deposited data

How the results depend on the processing

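Of 408 called genes that the naming rule covers, 345 kept their call under all of the 13 alternatives other than the fold test against 1.5, 63 lost it under at least 1 and 0 changed direction, and 294 of the 408 passed that fold test. The count of lower genes ranged from 1391 (without PBS replicate 2) to 2222 and that of higher genes from 2575 to 2925 with single libraries left out, and 580 were lower and 2220 higher when the fold was tested against 1.5. The largest and smallest other counts of lower genes were 2587 with upper-quartile scaling and 2074 with the replicate number as a block. The labels do not say that replicate numbers pair the samples. Deviations of same-numbered PBS and Lipo-TriTE libraries correlated at −0.19, −0.0021 and −0.18, and those of differently numbered ones at −0.17 to 0.24. So few libraries cannot show whether samples were paired. The replicate block gave 2846 higher genes. DESeq2 called 3651 higher and 2539 lower. No scaling moved the median over the genes tested by more than 0.044 on the log2 scale. With a library left out its group holds 2 libraries, and more genes were tested. The cause of these shifts was not tested. Genes at a few CPM rest on few counts, so small falls among them were not detectable at this depth.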

Other observations

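Several gene families outside the pathways above held members of both directions. Potassium channel genes were higher in 12 of 35 cases and lower in 4, and calcium and sodium channel genes were higher in 8 of 24 and lower in 2 (1 lower without PBS 3), against 18.9% higher and 14.8% lower of all tested genes. Cacna1e, a voltage-gated calcium channel subunit, had 1.04, 0.59 and 0.356 CPM in the PBS libraries and 36.8, 18.0 and 13.7 CPM in the Lipo-TriTE libraries (log2 fold change 5.12, SE 0.49, edgeR adjusted p = 6e-05). Its Lipo-BiTE libraries had 1.42, 1.13 and 1.16 CPM, and Lipo-TriTE lay above them by 4.20 on the log2 scale (edgeR adjusted p = 0.00099). Genes that sulfate or glycosylate carbohydrates split into 17 higher and 19 lower of 57. St8sia6, a sialyltransferase, had 0, 0.118 and 0.416 CPM in the PBS libraries and 18.0, 14.9 and 11.6 CPM in the Lipo-TriTE libraries (log2 fold change 6.25, SE 0.61, edgeR adjusted p = 7e-05). Rab genes, which direct vesicle traffic, were higher in 17 of 58 cases and lower in 8, with 2 lower without PBS 2 or PBS 3 and 4 without Lipo-TriTE 1 or 3. Rab27a, a Rab of secretory granules, had 4.08, 4.49 and 6.48 CPM in the PBS libraries and 72.5, 61.9 and 66.6 CPM in the Lipo-TriTE libraries. For each of these named genes every Lipo-TriTE library was above every PBS library.

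Polycomb and histone methylation genes were called at shares near those of all tested genes (18.9% higher and 14.8% lower). Of 43 Polycomb and histone methylation genes 9 were higher (20.9%) and 8 lower (18.6%), with 2 lower without PBS 3, 3 without PBS 2 or Lipo-TriTE 2, 4 without Lipo-TriTE 1 and 5 without Lipo-TriTE 3. Of 30 remodelling genes 3 were higher (10%) and 4 lower (13.3%), with 2 lower without Lipo-TriTE 2, PBS 2 or PBS 3. Cbx7, a Polycomb subunit, had 0.742, 2.72 and 3.21 CPM in the PBS libraries and 109.6, 50.1 and 47.2 CPM in the Lipo-TriTE libraries (log2 fold change 4.93, SE 0.56, edgeR adjusted p = 0.00018). Smarca2, an ATPase of SWI/SNF complexes, had 21.0, 16.4 and 15.9 CPM in the PBS libraries and 86.0, 67.0 and 64.0 CPM in the Lipo-TriTE libraries (log2 fold change 2.03, SE 0.25, edgeR adjusted p = 0.00023). Xist, the RNA of the inactive X chromosome, had 22, 21.0 and 26.0 CPM in the PBS libraries and 525, 341 and 348 CPM in the Lipo-TriTE libraries, a 17.6-fold rise (log2 fold change 4.14, SE 0.33, edgeR adjusted p = 3.3e-05). For Cbx7 and Smarca2 the Lipo-BiTE libraries lay between the groups, whereas for Xist, at 349, 243 and 143 CPM, the highest Lipo-BiTE library was above 2 Lipo-TriTE libraries. Xist did not pass the test between Lipo-TriTE and Lipo-BiTE (edgeR adjusted p = 0.14).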
